A study of Harpegnathos saltator with 27 samples.

Results

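The 200 genes described here are those whose RNA was most concentrated at 10 days after pupal formation (D10) in antennae of wild-type (WT) Harpegnathos saltator, the Indian jumping ant. They were chosen from the normalized counts of the 15 WT libraries, by the median of each stage. A gene needed a D10 median of at least 50, a D15 median below 1/2 of it, and an ID outside the odorant, ionotropic and gustatory receptor families. The full set held 14407 genes, of which 13990 were outside those families and 652 met both conditions, and the 200 with the highest ratio of D10 to the highest later median were taken, after 10 was added to both. These WT values chose the genes, so WT levels and differences between genotypes are given as a description and without a test. The mutant libraries had no part in the choice, and the tests are made between mutant stages.

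Antennae of WT and orco mutant pupae were collected at D10, D15, D20 and D25, and polyadenylated RNA was sequenced in bulk. WT had 3 libraries at D10 and 4 at each later stage, and mutants had 3 libraries at each stage, 27 in all. The mutation lies in orco, which encodes the co-receptor that insect odorant receptors need. The labels do not give the number of animals behind a library or say that replicates are separate pools of animals, so that p-values measure the spread between libraries.

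In insects with complete metamorphosis the antenna is rebuilt in the pupa. An epithelium divides and is patterned along its length, sensory organ precursors are singled out and divide into neurons and support cells, and the cells then leave the cell cycle, differentiate and secrete the adult cuticle. Steroid hormone pulses, read by a nuclear receptor pair, time much of this sequence, and many genes needed for division or for an early layer of cuticle are silenced as it proceeds.

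Counts on genes ranged from 3454610 to 52275933 per library. The orco transcript itself was present in all libraries, with 2562 to 4248 normalized counts in WT D10 and 3240 to 12378 in mutant D10. At D25 it was at 1960 to 6027 in WT and 237 to 464 in mutants, with no overlap. Sequencing was done in 3 batches. All WT D10 libraries and mutant D10 replicate 1 were in batch 1 and mutant D10 replicates 2 and 3 in batch 2, so that genotype and batch are in part aligned at D10. At D15, batch 3 held WT replicate 4 and mutant replicates 2 and 3. All mutant D25 libraries were in batch 3 and no mutant D10 library was, so that these mutant stages could not be compared inside a batch.

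Some libraries stood apart. The 200 genes took 11 to 15.6% of all counts in WT D10, and 10.4, 7.5 and 4.81% in mutant D10 replicates 1, 2 and 3. They took 0.23 to 3.22% in every later library of either genotype. The highest shares after D10 were the 3 batch 3 libraries of D15, at 3.22% in WT replicate 4 and at 1.79 and 2.97% in mutant replicates 2 and 3, against 0.55 to 1.21% in the other 4 D15 libraries.

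The decline in WT covered a wide range. The ratio the rule used had a median of 4.64, was at least 10 for 48 genes and at least 100 for 9, and ended at 2.99 for the last gene taken. WT D10 medians ran from 53.2 to 263731 normalized counts, with a median of 891. For 169 genes every WT D10 library lay above every later WT library. The rule used these same libraries, so this count is partly built into the choice, and the share of all tested genes was not counted. The highest later median was at D15 for 123 genes, at D20 for 34 and at D25 for 43. For 21 genes every later median was under 10. At the edge of the choice the 3 last genes, LOC105186053, Art1 and LOC105189607, had ratios of 3.02, 3.02 and 2.99, and LOC105181231 and Rab10, the first 2 genes left out, had 2.98 and 2.97.

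**Figure D1:**
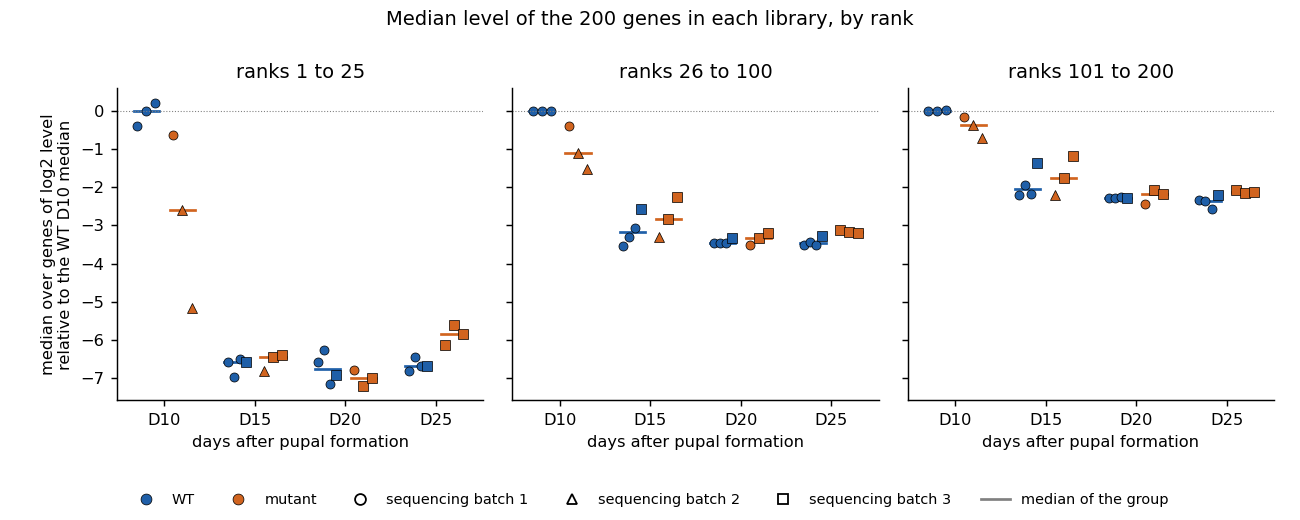
Each point is a library, placed by stage on the x axis, with the median over genes of its log2 level relative to the WT D10 median on the y axis, in 3 panels for ranks 1 to 25, 26 to 100 and the last 100. Colour gives the genotype, the marker the sequencing batch, and bars the median of the group. In ranks 1 to 25 the 3 mutant D10 libraries lie at -0.62, -2.60 and -5.16, while every later library lies at or below -5.60.

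Most members had no gene name. RefSeq gave a symbol to 54 and classed 186 as protein coding, 7 as long noncoding RNA and 3 as pseudogenes, and 4 were not in its table. Some members lay beside each other in the annotation. Of the 196 that could be placed, 33 (16.8%) had another member as the next entry within 20000 bases, and 2.29% of other tested genes had a member there. The annotation used names no scaffold, so that adjacency rests on the order and positions of its entries. The longest of 14 such runs held LOC105183872, LOC105183874, LOC105183875 and LOC105183876, and 3 of these 4 were among the 10 most abundant members at D10. Neighbours can share sequence, and reads that mapped to several places were tallied apart from the counts on genes.

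Most of the genes were also highest at D10 in mutants. From D10 to D15, 87 of the 199 tested members fell and 0 rose at an adjusted p under 0.05 (edgeR quasi-likelihood test, Benjamini-Hochberg over 11086 genes). Of all tested genes 4.6% fell and 5.71% rose in that contrast. At an unadjusted p under 0.05 1 member rose, and DESeq2 called 1. The median fitted log2 change was -1.60 for the members and 0.03 for all tested genes. Leaving out mutant D10 replicate 1 lowered the count of falls to 22, leaving out mutant D15 replicate 1 lowered it to 37 and leaving out mutant D15 replicate 2 lowered it to 55.

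At D20 the fall was broader. Between D10 and D20, 152 of 199 members fell and 0 rose, with 17.1% and 16.2% of all tested genes called lower and higher. DESeq2 again called 1 member higher, as did an unadjusted p under 0.05 in edgeR. The median log2 change was -2.34, against -0.05 for all tested genes. At D25, 131 members were lower than at D10 and 1 was higher, with 20% and 17.8% of all tested genes called. The median was -2.30. In each of these 3 contrasts with D10, 189 of 199 members had a fitted value below 0. Of all 11086 tested genes 5359, 5800 and 5850 did at D15, D20 and D25. Altogether 77 members were lower at D15, D20 and D25, and 164 at 1 or more of these stages. The same counts over all tested genes were not made, so that both describe the members only.

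A count without a model, by whether libraries overlapped, pointed the same way. It was above the count of the test at D15 and D25 and near it at D20. All mutant D10 libraries exceeded all mutant D15 libraries for 131 of 200 members, against 18% of tested genes. The count was 150 at D20 and again 150 at D25, where 20.5 and 30.1% of tested genes had that separation. For 112 members mutant D10 lay above every later mutant library, against 7.75% of tested genes. The reverse was rare, with D15 above D10 in 2 members, D20 in 1 and D25 in 2, against 19.8, 22.4 and 31.7% of tested genes. Comparisons inside a batch gave the same direction. In batch 2, mutant D10 replicates 2 and 3 were both above mutant D15 replicate 1 for 166 members, with a median log2 difference of 1.78, and in batch 1 mutant D10 replicate 1 was above D20 replicate 1 for 192 members, with a median of 2.68. The shares of tested genes were 39.9 and 50.9%.

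**Figure D2:**
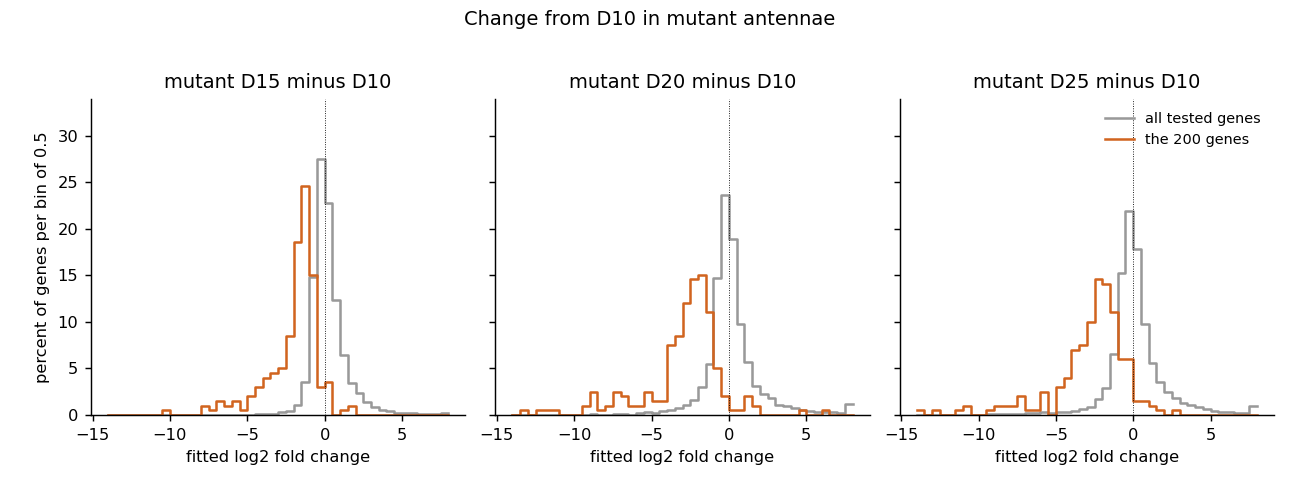
Histograms of the fitted log2 fold change in mutants from D10 to D15, D20 and D25 (x axis, bins of 0.5), as a percent of genes (y axis), for the 199 tested members (orange) and all 11086 tested genes (grey). Values beyond the axis are in the outermost bins. The members' medians are -1.60, -2.34 and -2.30, and those of all tested genes lie between -0.06 and 0.03.

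After D15 fewer members moved. From D15 to D20 in mutants 50 fell and 3 rose, where 10.8 and 9.35% of tested genes fell and rose. The 53 called became 35 without mutant D15 replicate 3. From D20 to D25 1 fell and 4 rose, at shares of 1.62 and 1.73%. The last count was near the background, and 1 or 2 were called without any 1 of the mutant libraries of these stages other than D20 replicate 1.

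When the WT rule was applied to mutant medians it chose 103 of the 200 genes again, 51.5% of each list. The overlap was 20 of 25 for the highest ranks, 37 of 75 for ranks 26 to 100 and 46 of the last 100. The mutant median was highest at D10 for 177 members, at D15 for 8, at D20 for 8 and at D25 for 7. The mutant D10 median was under 50 for 30 of the 200. The counts by stage of the highest median and by level were not made over all tested genes, so that they describe the members only.

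The steepest genes were nearly silent after D10. LOC105183875, first by the ratio at 3876, was at 113047, 162409 and 166746 normalized counts in WT D10. Its WT D15 libraries were at 21.5, 16, 175 and 42.3. In mutants it stood at 112648, 15013 and 248 at D10 and at 40.6, 39.4 and 29.0 at D15. Each mutant D10 library was above every later mutant library, yet the highest was 436 times the lowest after 10 was added. Its fitted log2 change from D10 to D15 in mutants was -10.29 ± 2.26 (SE, adjusted p = 0.0086, edgeR). Leaving out mutant D10 replicate 1 or mutant D15 replicate 1 ended that call.

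The next genes behaved alike. LOC109504425, second by the ratio at 1469, was at 32401, 61569 and 181641 in WT D10 and at 9220, 211 and 58.2 in mutant D10. All mutant values were below all WT values. Its mutant change from D10 to D15 was -6.95 ± 1.76 (SE, adjusted p = 0.018, edgeR). LOC105189257, its neighbour in the genome, was at 9305, 24800 and 62369 in WT D10 and at 3058, 52.0 and 19.4 in mutant D10. Its mutant D15 libraries lay between 3.31 and 6.94, and the change was -7.75 ± 1.83 (SE, adjusted p = 0.012, edgeR). None of these 3 IDs carries a gene name.

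Further down the same ranks, LOC105190080 was at 8115, 19170 and 49632 in WT D10. Mutant D10 gave 4404, 751 and 178, and the fitted mutant change to D15 was -6.50 ± 1.52 (SE, adjusted p = 0.012, edgeR). LOC105188017 was at 67367, 138108 and 234441 in WT D10 and at 28099, 242 and 77.6 in mutant D10. Here D15 was uneven, with 27.9, 919 and 510 in mutants. That spread overlapped mutant D10, and the change to D15 did not pass the test (-4.35 ± 2.07, adjusted p = 0.16, edgeR). The change to D20 did, at -9.48 ± 2.63 (SE, adjusted p = 0.0083, edgeR).

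LOC105183874, the most abundant member at D10, was at 152527, 263731 and 354189 in WT D10. Mutant D10 held 118112, 12936 and 2149, and mutant D15 held 188, 952 and 967. It fell by 6.05 on the log2 scale from D10 to D15 in mutants (SE 1.32, adjusted p = 0.0084, edgeR). Y-f was at 8353, 10952 and 12696 in WT D10 and at 8426, 2472 and 504 in mutant D10. Its mutant D15 libraries lay at 69.5 to 124, and it fell by 5.51 (SE 0.85, adjusted p = 0.0015, edgeR), past the threshold at each later stage too.

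**Figure D3:**
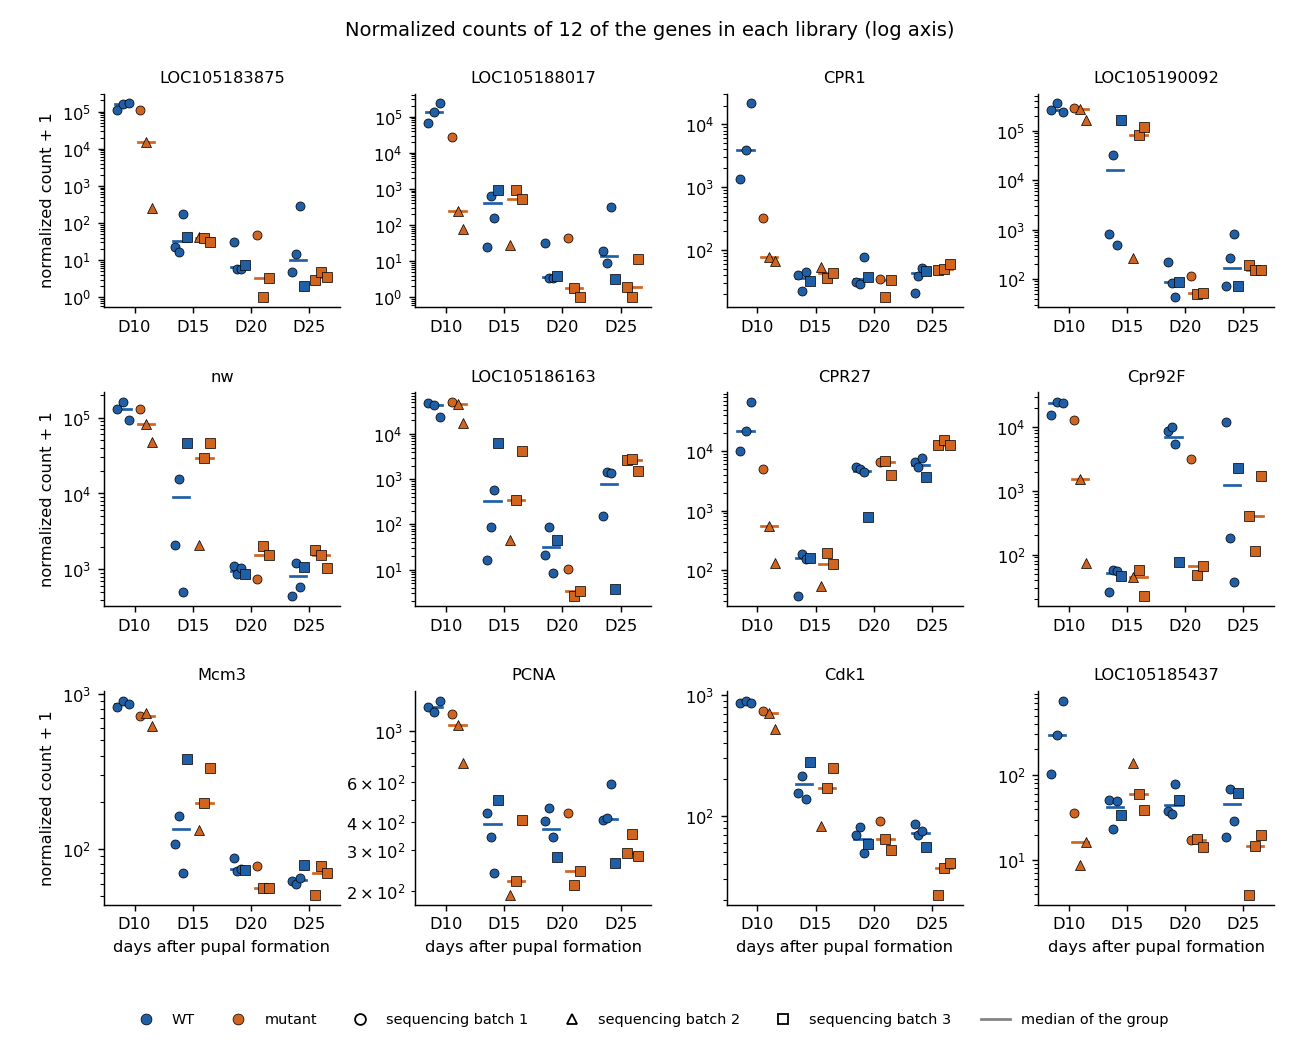
Normalized counts plus 1 (y axis, log scale) of 12 members in each library by stage (x axis), with colour for genotype, marker for sequencing batch and bars for the group median. In the top left panel LOC105183875 spans 248 to 112648 in mutant D10, while Mcm3 in the bottom row spans 621 to 746.

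The mutant D10 libraries differed most where the WT ratio was high. Over ranks 1 to 25 the highest of the 3 libraries exceeded the lowest by a median of 16.4-fold after 10 was added, and by 1.90-fold in WT D10. Over the last 100 ranks the medians were 1.58 and 1.32-fold, and over all tested genes 1.42 and 1.17-fold. Replicate 1 was the highest and replicate 3 the lowest in a regular way. The order 1 over 2 over 3 held for 130 of 200 members, against 24.5% of tested genes.

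Against the WT D10 median, the members' median log2 level was -0.29, -0.66 and -1.17 in mutant D10 replicates 1, 2 and 3. All tested genes had medians between -0.01 and 0.00 in the same libraries. Replicate 1 was below all WT D10 libraries for 98 members, replicate 2 for 155 and replicate 3 for 174, while 31.4, 35.4 and 40.4% of tested genes lay below. In 85 members all 3 mutant libraries were within 2-fold of the WT median, and in 14 all 3 were at 1/4 of it or less. These last counts were not made over all tested genes.

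Other measures differed between these libraries too. The summed normalized counts of all odorant receptor genes with orco were 11201, 21200 and 31994 in mutant D10 replicates 1, 2 and 3, and 8931 to 12391 in WT D10. The orco transcript was at 3240, 7500 and 12378. Of 19 tested neuron markers, 5, 11 and 16 were above all WT D10 libraries in replicates 1, 2 and 3, where 32.5, 36.1 and 38.9% of all tested genes were, none was at 0, and their summed level was 13228, 14587 and 26226 against 10865 to 14353 in WT. Muscle markers summed to 29507, 26977 and 41506, against 23962 to 28954 in WT, and none of the 11 was at 0. The 6 glia markers summed to 7152, 8524 and 13604 in replicates 1, 2 and 3, against 7311 to 7781 in WT. The 4 support cell markers summed to 5682, 7991 and 10159, against 5995 to 6626. Replicate 3 was thus the highest of the 3 mutant libraries for neuron, glia, support cell and muscle markers. It was also the highest for the trachea, hemocyte and epidermis lists that follow, and replicate 2 was for fat body. The 6 trachea markers summed to 17416, 17439 and 18453, below the 22555 to 40515 of WT, and the 4 fat body markers to 616, 824 and 799, above the 404 to 586 of WT. The 13 hemocyte markers summed to 14208, 15772 and 16909 (14314 to 16788 in WT) and the 10 epidermis markers to 25599, 29496 and 30144 (27879 to 29438 in WT). No marker of these lists was at 0. Total counts were 20649985, 5205684 and 3454610, and 4.85, 33.2 and 24.8% of reads did not map, against 3.53 to 5.16% in WT D10. The part of these measures and of batch in the differences between D10 libraries was not tested.

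**Figure D4:**
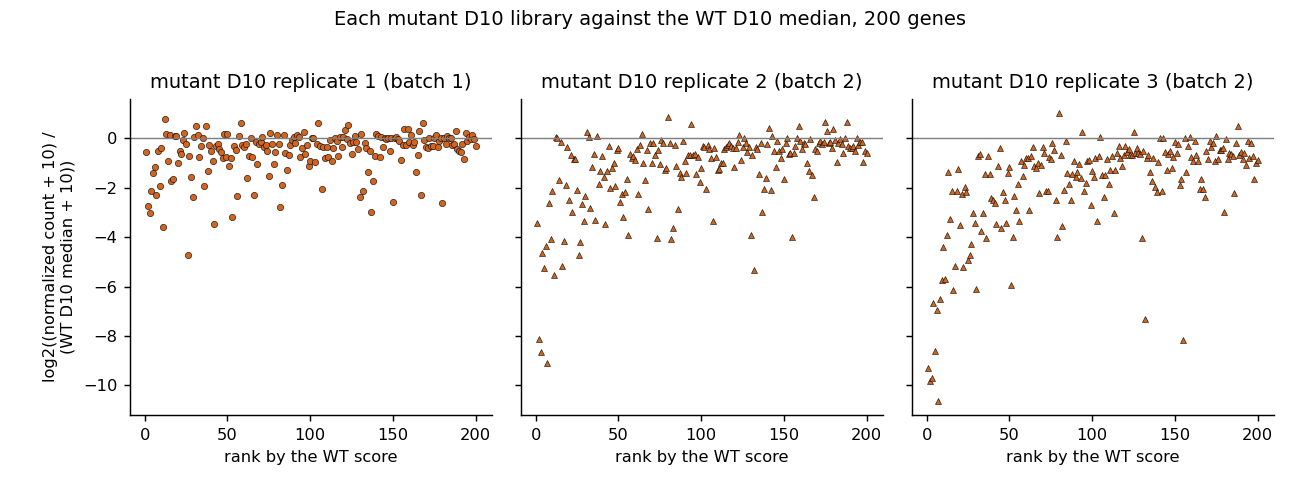
Each point is 1 of the 200 genes, at its rank by the WT ratio (x axis) and the log2 ratio of a mutant D10 library to the WT D10 median, with 10 added to both (y axis), in a panel for each library. The median over genes is -0.29 in replicate 1, -0.66 in replicate 2 and -1.17 in replicate 3, and the points far below 0 gather at the low ranks.

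As a group mutant D10 sat below WT D10. WT exceeded mutant without overlap for 87 members, against 10.3% of tested genes, and the reverse held for 2 members, against 8.05%. The fitted difference was below 0 for 185 of 199 members with a median of -0.60, and for 5789 of all 11086 tested genes. Because high WT D10 values chose these genes, such a gap is partly built into the choice. No test of genotype is given, since WT values at every stage entered the choice.

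CPR1, whose symbol is that of a cuticle protein with a chitin-binding domain, and its neighbour LOC105180611 had wide gaps at D10. CPR1 was at 1359, 3903 and 21706 in WT D10 and at 319, 75.4 and 65.9 in mutant D10. LOC105180611 was at 1491, 3595 and 39836 in WT D10 and at 693, 343 and 326 in mutant D10. Both genes spanned over 10-fold within WT D10, with replicate 3 highest, and the genotypes did not overlap.

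A separate set of members was high in every D10 library and uneven at D15. LOC105190092 was at 263407, 362294 and 239982 in WT D10 and at 289557, 273556 and 169932 in mutant D10. At D15 WT ran 831, 32019, 502 and 166273, and mutants 261, 84006 and 120963. The batch 3 libraries were the highest in both genotypes, followed by WT replicate 2 of batch 1. At D20 mutants were at 116, 48.8 and 52.1, and from D15 to D20 it fell by 9.90 on the log2 scale (SE 2.11, adjusted p = 0.0018, edgeR), whereas the change from D10 to D15 did not pass (-1.88 ± 1.49, adjusted p = 0.40, edgeR).

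LOC105183876, a neighbour of LOC105183875 and LOC105183874, was uneven at D15 as well. It was at 118748, 121500 and 53666 in WT D10 and at 168515, 142376 and 72623 in mutant D10. WT D15 gave 615, 11868, 178 and 30460, and mutant D15 gave 117, 15699 and 22292. No mutant D20 library was above 38.9, and from D15 it fell by 9.11 (SE 1.92, adjusted p = 0.0016, edgeR).

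The gene nw, named after narrow, which affects wing shape in flies, was at 128498, 159662 and 93542 in WT D10. Mutant D10 held 128709, 83052 and 47022, and mutant D15 held 2088, 29385 and 46414. Both mutant libraries of batch 3 were above that of batch 2, and in WT D15 the values were 2068, 15647, 507 and 45651, with the batch 3 library highest. By D20 mutants were at 750, 2053 and 1556, and from D15 to D20 it fell by 4.19 (SE 1.12, adjusted p = 0.0099, edgeR). The symbol dpn belongs to deadpan, a transcriptional repressor of neural precursors in flies. It was at 424, 699 and 684 in WT D10 and at 266, 182 and 248 in mutant D10. Mutant D15 gave 22.8, 229 and 197, and from D15 to D20 it fell by 3.21 (SE 0.85, adjusted p = 0.0095, edgeR). PGRP-S3 fell by 3.39 over the same interval (adjusted p = 0.0056, edgeR). LOC105190590 fell by 7.56 (adjusted p = 0.00048, edgeR).

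The unevenness at D15 ran through the members. WT D15 replicate 4 was the highest of the 4 WT D15 libraries for 127 members, against 23.4% of tested genes. All 3 batch 3 libraries of D15 exceeded the other 4 D15 libraries for 65 members, against 7.25% of tested genes. The part of batch in these levels was not tested. Fewer cells of a type and less RNA per cell also cannot be told apart in bulk antennae, here or in any comparison.

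Genes of cell division were among the members with less spread at mutant D10 than ranks 1 to 25, where the median was 16.4-fold. Of 35 tested genes of a DNA replication list, 7 were members. These were Mcm2, Mcm3, dpa, Mcm6 and Mcm7, subunits of the helicase that opens DNA for replication, PCNA, the sliding clamp of the DNA polymerases, and RfC38, a subunit of the clamp loader. Their WT ratios were modest, from 3.03 to 5.97, at ranks 77 to 195. Their spread at mutant D10 was from 1.20 to 1.66-fold. That is around the median of 1.42-fold over all tested genes and below the 2.06-fold of all members.

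Mcm3 was at 815, 895 and 852 in WT D10 (854 ± 39.7, SD, n = 3) and at 721, 746 and 621 in mutant D10 (696 ± 66.3, SD, n = 3). WT D15 held 107, 162, 69.1 and 380 and mutant D15 132, 197 and 331.9. Each D10 library of either genotype was above each D15 library, and the fitted mutant change was -1.71 at D15 (SE 0.42, adjusted p = 0.014, edgeR) and -3.55 at D20 (SE 0.45, adjusted p = 6.4e-06, edgeR). PCNA was at 1265, 1211 and 1349 in WT D10 and at 1182, 1061 and 721 in mutant D10. Its mutant D15 libraries were at 190, 220 and 408, a change of -1.91 (SE 0.35, adjusted p = 0.0028, edgeR). It did not go further down, with a D15 to D20 change of 0.10 ± 0.34 (SE).

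All 7 replication members fell in mutants at D15, D20 and D25, with log2 changes from -1.91 to -1.0 at D15 and from -3.55 to -1.35 at D20. At D15 the call rested on single libraries, since 2 of 7 remained without mutant D10 replicate 1 or without mutant D15 replicate 1, and 3 without mutant D10 replicate 2 or mutant D15 replicate 2. The list as a whole, with these 7 in it, leaned the same way. The 7 were chosen for a fall in WT, so they add to the counts and medians of the list. Of all 35 genes, 18 fell at D15, 27 at D20 and 29 at D25, against 4.6, 17.1 and 20% of all tested genes, and 0 rose at D15, D20 or D25, also at an unadjusted p under 0.05 in edgeR and by DESeq2. The 18 at D15 became 2, 7, 4 and 8 without mutant D10 replicate 1, mutant D10 replicate 2, mutant D15 replicate 1 and mutant D15 replicate 2. Their median log2 change was -0.89 at D15 and -0.86 at D20, against 0.03 and -0.05 for all tested genes.

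Mitosis was represented by Cdk1, the kinase that drives entry into mitosis, and mad2, of the spindle checkpoint. Cdk1 was at 859, 891 and 859 in WT D10 and at 739, 715 and 520 in mutant D10. Mutant D15 held 81.1, 170 and 247, and mutant D25 held 21.1, 36.3 and 40.0. The change was -2.03 at D15 (SE 0.35, adjusted p = 0.0023, edgeR) and -4.39 at D25 (SE 0.40, adjusted p = 1.7e-07, edgeR). At the same stages mad2 changed by -1.58 and -2.03, with adjusted p-values of 0.0063 and 6.7e-05 (edgeR). Without mutant D10 replicate 1, only 1 of these 2 members was still called at D15. Both were chosen for a fall in WT, so they add to the counts and medians of the mitosis list. Of 37 tested genes of the mitosis list 10 fell and 1 rose at D15, and 23 fell and 0 rose at D20, against 4.6 and 5.71% and then 17.1 and 16.2% of all tested genes. The 10 at D15 became 2, 4 and 6 without mutant D10 replicate 1, mutant D15 replicate 1 and mutant D15 replicate 2, and the 23 at D20 became 15 without mutant D10 replicate 1. An unadjusted p under 0.05 in edgeR and DESeq2 also gave 0 rises at D20. The median was -0.37 at D15 and -0.73 at D20.

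**Figure D5:**
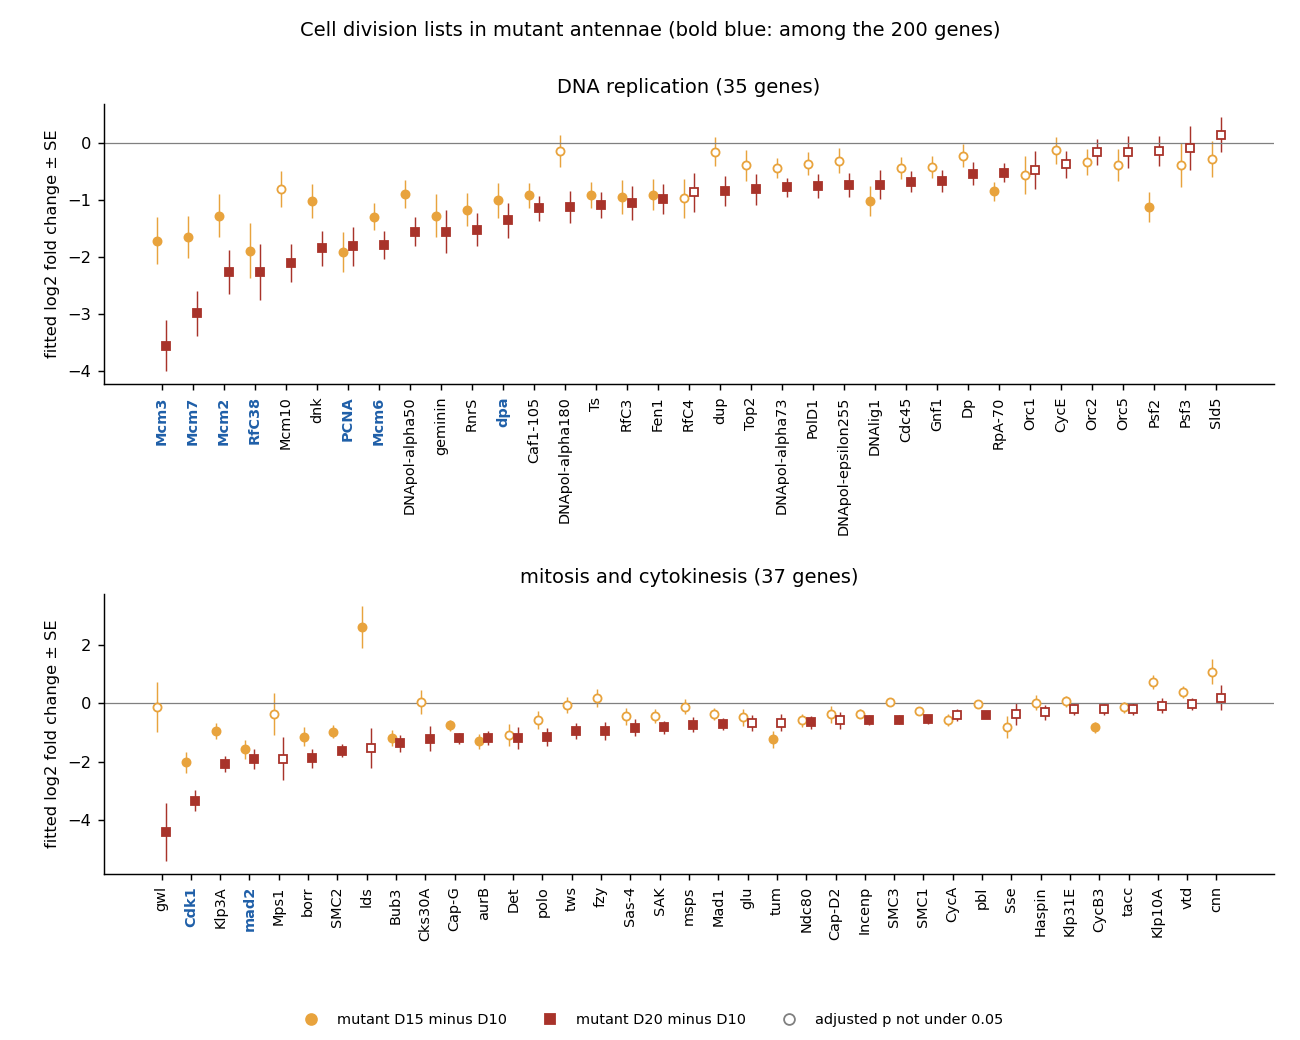
Fitted log2 fold change with its SE (y axis) in mutants from D10 to D15 (circles) and to D20 (squares) for each tested gene (x axis) of the DNA replication and mitosis lists. Filled symbols passed an adjusted p under 0.05, and names in bold blue are members. At D20 27 of 35 replication genes and 23 of 37 mitosis genes fell.

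p53, a transcription factor of the DNA damage response, was named after its values were seen. It was at 2358, 2561 and 2310 in WT D10 and at 2289, 2220 and 1241 in mutant D10. Mutant D15 was at 284, 441 and 635, and it fell by 2.13 (SE 0.36, adjusted p = 0.0018, edgeR).

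Abundant genes could also differ less between mutant D10 libraries than ranks 1 to 25, where the median spread was 16.4-fold. The spread of LOC105184525 was near the members' median of 2.06-fold. LOC105184525 was at 101960, 86681 and 96878 in WT D10 and at 104003, 62491 and 51704 in mutant D10. Mutant D15 held 10997, 12991 and 28458, and it fell by 2.12 (SE 0.45, adjusted p = 0.0071, edgeR). Non2 was at 59671, 60167 and 60402 in WT D10 and at 61180, 42598 and 42731 in mutant D10. Its mutant D15 libraries lay at 10388, 22339 and 27713, and it fell by 1.33 (SE 0.42, adjusted p = 0.046, edgeR).

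Patterning and hormone genes contributed a few members each. Lim1, a LIM-homeodomain gene of distal appendage identity in flies, was at 685, 1290 and 401 in WT D10 and at 759, 572 and 632 in mutant D10. Mutant D15 held 53.2, 170 and 232, and it fell by 2.14 (SE 0.58, adjusted p = 0.025, edgeR). The Hedgehog effector ci and the Wnt receptor fz2 did not pass at D15, with -1.24 ± 0.47 and -0.70 ± 0.50 (SE), and reached -1.86 and -1.66 at D20 (adjusted p = 0.0053 and 0.016, edgeR). Of the 34 tested patterning genes 1 fell and 0 rose at D15, 9 fell and 2 rose at D20, and 10 fell and 4 rose at D25. Of all tested genes 4.6, 17.1 and 20% fell and 5.71, 16.2 and 17.8% rose at these stages. For D15, an unadjusted p under 0.05 gave 3 rises and DESeq2 gave 3. Outside that list dan and tll were picked after their values were seen. The gene dan, distal antenna, shapes antennal identity in flies. It was at 329, 335 and 318 in WT D10 and at 325, 299 and 240 in mutant D10, with 112, 155 and 200 in mutant D15. It passed at D20, at -1.38 ± 0.39 (SE, adjusted p = 0.010, edgeR). The nuclear receptor gene tll was at 104, 138 and 283 in WT D10, at 91.1, 54.6 and 23.3 in mutant D10 and at 5.07, 1.65 and 1.22 in mutant D15. That was a change of -4.86 ± 1.00 (SE, adjusted p = 0.0063, edgeR).

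The gene usp encodes the partner of the ecdysone receptor. It was at 2865, 3231 and 3437 in WT D10 and at 2880, 2535 and 1877 in mutant D10. One mutant D15 library kept the D10 level, with values of 2955, 527 and 920, and the change did not pass (-0.82 ± 0.46, adjusted p = 0.23, edgeR). By D20 it fell by 2.51 (SE 0.48, adjusted p = 0.00045, edgeR). ImpL2, which binds insulin-like peptides in flies, and br, an ecdysone-induced transcription factor, did not pass in any mutant contrast with D10. Their fitted changes to D20 were -0.90 ± 0.68 and -0.70 ± 0.64 (SE). Across the 22 tested hormone genes 0 fell and 6 rose at D15, where 4.6 and 5.71% of all tested genes did, and 4 fell and 6 rose at D20, where 17.1 and 16.2% did. At D15 an unadjusted p under 0.05 gave 2 lower and DESeq2 1.

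SoxN, a Sox family transcription factor of neural precursors in flies, was the other member from the sensory precursor list beside dpn. It was at 548, 649 and 739 in WT D10 and at 455, 374 and 275 in mutant D10, without overlap. Mutant D20 kept 136, 409 and 466, and only the change to D25 passed, at -1.31 ± 0.45 (SE, adjusted p = 0.025, edgeR). Of the 27 tested genes of that list 0 fell and 1 rose at D15 (1 fell by DESeq2 and 1 at an unadjusted p under 0.05), and 2 fell and 2 rose at D20. Of all tested genes 4.6 and 5.71% fell and rose at D15 and 17.1 and 16.2% at D20. No member was on the axon guidance list, on the cuticle list or on any of the 8 marker lists for neurons, glia, support cells, muscle, hemocytes, trachea, fat body and epidermis. These lists match by symbol, and 146 members have none. The lists are also incomplete, since the cuticle list did not match the member CPR1.

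Some members came back late in the pupa. CPR27 and Cpr92F, whose symbols are those of chitin-binding cuticle proteins, were not matched by the cuticle list and are placed here after their values were seen. CPR27 was at 10259, 22078 and 66758 in WT D10 and at 35.2 to 182 in WT D15. WT D20 returned to 5445, 4918, 4401 and 781. Mutants went from 5023, 546 and 128 at D10 to 53.2, 189 and 124 at D15, and then to 12537, 15531 and 12625 at D25. In mutants it fell by 4.01 from D10 to D15 (SE 1.00, adjusted p = 0.016, edgeR), rose by 5.51 from D15 to D20 (SE 1.08, adjusted p = 0.00089, edgeR) and was higher at D25 than at D10 by 2.76 (SE 0.95, adjusted p = 0.026, edgeR).

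Cpr92F returned in some libraries. It was at 15126, 24459 and 24129 in WT D10 and at 24.9 to 57.1 in WT D15. WT D20 held 8694, 9876, 5379 and 75, and WT D25 11841, 182, 36.8 and 2281. The low WT D20 library was of batch 3. Mutant D10 held 13042, 1503 and 73.7, and by D15 it fell by 6.99 (SE 2.18, adjusted p = 0.044, edgeR). The rise to D20 did not pass (4.77 ± 1.98, adjusted p = 0.095, edgeR), with mutant D20 at 3155, 47.2 and 64.1.

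LOC105183872, of the run of 4 genes and also picked after its values were seen, was at 7640, 13238 and 20696 in WT D10 and at 7982, 4360 and 2921 in mutant D10. Mutant D20 held 229, 150 and 107 and mutant D25 held 5214, 9366 and 3862. The rise from D20 to D25 was 5.26 (SE 1.37, adjusted p = 0.036, edgeR). LOC105186163 did the same. It was at 50824, 46126 and 17537 in mutant D10, at 9.16, 1.57 and 2.39 in mutant D20 and at 2701, 2762 and 1533 in mutant D25, a rise of 9.16 (SE 2.33, adjusted p = 0.032, edgeR). In WT D25 it was at 154, 1468, 1379 and 2.70, with the batch 3 library lowest. The rises of LOC105183872 and LOC105186163 are among the 4 of 199 members called higher from D20 to D25 in mutants. Of all tested genes 1.73% were called higher there. As given above, the count of such calls was near the background and fell when most single mutant libraries of these stages were left out. In 7 members the WT median at D20 or D25 was at least 5 times the D15 median, with D15 medians under 10 set to 10.

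LOC105187607, picked for its uneven values, had single libraries far above the others of their groups. It was at 591, 1373 and 2427 in WT D10, but at 43839 in WT D15 replicate 3, with 11.2 to 36.6 in the other WT D15 libraries. It was at 12141 in WT D20 replicate 4. Mutant D20 gave 244, 32132 and 2884, and none of the 3 mutant contrasts with D10 passed.

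Of the 200 members 36 did not pass the test as lower in any mutant contrast with D10, 1 of which was too low to be tested. Their WT D10 levels were low, with a median of 149, against 1329 for the other 164. LOC105185437 was at 102, 292 and 742 in WT D10 and at 34.7, 7.80 and 15.5 in mutant D10. Its mutant D15 libraries, at 137, 59.6 and 38.0, were all above mutant D10. The fitted change of 1.79 ± 0.72 did not pass (adjusted p = 0.10, edgeR), but the later change from D15 to D20 did, at -2.32 (SE 0.71, adjusted p = 0.023, edgeR). LOC105182278 was at 61.9, 144 and 234 in WT D10 and at 26.7, 5.20 and 19.4 in mutant D10. At D15 mutants were at 30.4, 71.1 and 60.8, all above D10 again, with a fitted 1.56 ± 0.88 that did not pass (adjusted p = 0.24, edgeR).

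Some weak members rested on part of the WT libraries. In WT D10 replicate 2, 8 members were at 1/4 or less of the WT D10 median, with 10 added to both. LOC109504087 was at 252, 1.24 and 251 in WT D10 and at 0 in all 3 mutant D10 libraries. LOC109503982 was at 110, 0 and 100 in WT D10 and at 0 in all 3 mutant D10 libraries. In WT D25 replicate 3 the first was at 331 and the second at 91.9, while the other WT D25 libraries did not exceed 3.96. LOC112588306 was similar, at 83.5, 0 and 79.8 in WT D10, at 0, 0 and 7.76 in mutant D10 and at 129 in WT D25 replicate 3. So presence did not follow stage alone in WT, and the median over 3 libraries passed the rule although replicate 2 had almost no counts of these 3 genes, LOC112588306 being picked after its values were seen.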

How the data were processed

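The authors mapped reads with STAR 2.6.1d and deposited unstranded counts per gene and a table of normalized counts, counts divided by DESeq2 1.34.0 size factors (the deposited signal used for levels); reads of a batch with longer reads were trimmed, per the study's methods. The genome was RefSeq assembly Hsal_v8.6. Without strand, overlapping and antisense genes were not separated. Members were chosen from the deposited normalized counts with a pseudocount of 10, and the members and gene lists were chosen with earlier results of these data known.

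Deposited counts were fitted with edgeR 4.0.16 in R 4.3.3 (TMM, glmQLFit and glmQLFTest, 8 groups of genotype and stage, 27 libraries, no covariate). The SE given with a fitted change was back-calculated. It was the absolute log2 fold change divided by the square root of the quasi-likelihood F statistic. A gene entered the tests when its counts averaged 10 or more over the libraries (11086 genes, 199 of them members), with Benjamini-Hochberg adjustment in each contrast and a threshold of 0.05. The code was tested on simulated data. Alternatives were DESeq2 1.42.0, other scalings and filters, a batch term, a replicate block, mutant libraries alone and leaving out each library. No replicate pair agreed within sampling noise (lowest chi-square per degree of freedom 20.3 over 33 pairs). Genes named were those with the highest ratio or D10 level, list members, the extremes of the mutant change and of the genotype difference at D10, and those at the edge of the choice, with a few added after their values were seen. Promoter and protein sequences were not used here.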

Additional observations from a re-analysis of the deposited data

Results flagged for a closer look

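Normalized counts of 27 members and 2 summaries of all members were looked at in the WT groups of 4 libraries, 87 groups in all, and 23 had a library far from the others, all of them high. Chance gives about 1 in 20 for normally distributed values, but normalized counts are skewed. LOC105187607 was also picked for its uneven values, and in 5 of the 23 groups the other 3 libraries were at 0. The number is thus a description only. The library WT D25 replicate 3 accounted for 8 of them. There LOC105183875 was at 290, LOC105183876 at 175, LOC109504425 at 198, LOC105189257 at 91.9, LOC105190080 at 115, LOC105188017 at 322, LOC109504087 at 331 and LOC109503982 at 91.9, while the other WT D25 libraries had at most 25.7 for any of these genes. This library was the highest of WT D25 for 17 of the 25 top-ranked members and for 66 of all 200, against 30.1% of tested genes. It shared batch 1 with WT D10, had 8324206 counts on genes, the fewest in WT, and left 30.6% of reads unmapped. Their part in these values was not tested. Without it 195 of the 200 members were kept.

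In WT D15 replicate 3, LOC105183875 was at 175, LOC105189257 at 32 and LOC105187607 at 43839. In WT D15 replicate 4, LOC105183872 was at 1051 and LOC105186163 at 6317. WT D20 replicate 1 stood apart for LOC105183875 at 29.7, LOC105188017 at 31.1 and Mcm3 at 86.4, and WT D20 replicate 3 for CPR1 at 76.3. WT D20 replicate 4 stood apart for LOC105187607 at 12141, LOC105182278 at 59.0, LOC109504087 at 0.59 and LOC109503982 at 1.18. LOC109504087 was at 7.13 in WT D15 replicate 2 and LOC109503982 at 0.86 in WT D15 replicate 1, with 0 in the other WT D15 libraries.

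By normalized counts LOC105185437 and LOC105182278 went opposite ways in the genotypes from D10 to D15. Every WT D15 library was below every WT D10 library, and every mutant D15 library was above every mutant D10 library. The fitted mutant changes were 1.79 and 1.56, and the WT changes -3.35 and -2.55 on the log2 scale. Neither mutant rise passed the test. Mutant D10 levels were low, at 34.7, 7.80 and 15.5 for LOC105185437 and at 26.7, 5.20 and 19.4 for LOC105182278, with replicates 2 and 3 the shallowest libraries. Mutant D15 lay above mutant D10 without overlap for 2 of 200 members, against 19.8% of tested genes. The difference between genotypes was not tested, since WT values chose the genes.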

How the results depend on the processing

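Membership was kept by 169 to 195 of the 200 genes under other scalings, pseudocounts, the mean or batch 1 alone, and by 176 to 197 with 1 WT library left out. The overlap with the same rule in mutants ran from 90 to 113. The count of members lower in mutants at D15 was 22 to 96 with 1 library left out. Members called from D15 to D20 were 53, and 110 with library size only and 35 to 57 with 1 library left out. Members called from D20 to D25 were 5, and 14 with DESeq2, 32 with library size only, 13 with a batch term, 11 with mutant libraries alone and 1 to 5 with 1 library left out. Library size only moves the median of all tested genes, by -0.93 from D10 to D20 and -1.70 from D10 to D25. The median log2 difference between genotypes over members at D25 was 0.13, and -0.51 with library size only, -0.12 with a batch term and 0.079 to 0.25 with 1 library left out. The replication list had 18 genes lower at D15, and 2 to 19 with 1 library left out. The mitosis list had 10 lower at D15, 18 with a batch term and 2 to 11 with 1 library left out, and at D20 23, 36 with library size only and 15 to 20 with 1 library left out. Same-numbered replicates did not deviate together (correlations from -0.323 to 0.364), so the numbers do not pair the libraries. With a replicate block 92, 151 and 133 members were lower at D15, D20 and D25, and 55 and 7 were called in the later contrasts. Of 2094 values of single named genes under alternatives 97 lost and 37 gained significance, and none of those past the threshold changed sign. The 3 libraries a group limit each stage, and 2 of the mutant D10 libraries were the shallowest.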
